A study of Homo sapiens with 12 samples.

Results

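Galectins are small lectins that bind beta-galactose on glycoproteins and glycolipids. They are made in the cytosol, leave cells without a signal peptide, and cross-link glycoproteins at the cell surface. Galectin-3 (LGALS3) carries a tail through which its molecules join into larger complexes, galectin-1 (LGALS1) acts as a homodimer, and galectin-8 (LGALS8) joins a pair of sugar-binding domains in a single chain. The galectin-3 binding protein (LGALS3BP) is a secreted, heavily glycosylated scavenger receptor family protein that galectins bind. In tumour cells galectin-1 and galectin-3 have been studied mainly for their roles in adhesion, survival and invasion.

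The members were every probe set of the array that the platform annotation assigns to LGALS1, LGALS3, LGALS3BP or LGALS8 alone. They number 10 of 54675 probe sets: 1 for LGALS1, 2 for LGALS3, 1 for LGALS3BP and 6 for LGALS8. The genes were selected on the measured fold changes of the knockdown lines against Mock, in which earlier results of these data had named LGALS3. Fold changes of the members against Mock are therefore given as a description, without a test. RNA levels come from 12 Affymetrix U133 Plus 2.0 arrays, 3 for each of 4 groups of IGROV-1 cells, which are an established line from a human ovarian cancer. Lines shCXCR4 I and shCXCR4 II (line I and line II) were individual clones that stably carry a plasmid with a different short hairpin RNA each against CXCR4, the receptor for the chemokine CXCL12. Mock cells were a pool of clones carrying a scrambled RNA plasmid. All 3 of these groups were transfected with a lipid reagent and then kept in 4 µg/ml puromycin for 30 days. Parental cells were untransfected IGROV-1 cells. Each shRNA was represented by a single clone, so the effect of the knockdown and the origin from a single cell cannot be told apart in any comparison of a line with a control. The labels do not state that arrays of a group came from separate cultures, so p-values measure the spread between arrays, which may be technical.

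RefSeq (GRCh38.p14) places LGALS3 at chr14:55129252-55145430, LGALS3BP at chr17:78971255-78979923, LGALS8 at chr1:236518214-236552981 and LGALS1 at chr22:37675636-37679802. The 250 bases before the gene start are shown for LGALS3, whose RNA differed most between the groups, and for its binding protein, which differed less. Both run 5′ to 3′ on the gene's own strand, with capitals for motif matches. The first window is chr14:55129002-55129251 on the plus strand, and the second is chr17:78979924-78980173 on the minus strand.
LGALS3: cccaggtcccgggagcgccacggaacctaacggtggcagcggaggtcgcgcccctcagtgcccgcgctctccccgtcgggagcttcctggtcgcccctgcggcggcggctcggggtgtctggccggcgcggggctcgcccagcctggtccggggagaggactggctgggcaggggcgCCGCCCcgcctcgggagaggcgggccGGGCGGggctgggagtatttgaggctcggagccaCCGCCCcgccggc
LGALS3BP: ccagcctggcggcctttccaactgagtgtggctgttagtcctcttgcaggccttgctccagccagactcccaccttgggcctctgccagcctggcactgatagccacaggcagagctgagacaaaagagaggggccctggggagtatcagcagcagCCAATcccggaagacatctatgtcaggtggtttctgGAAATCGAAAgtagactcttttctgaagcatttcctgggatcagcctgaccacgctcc
In the LGALS3 window G and C made up 78.8% of bases and CG occurred 32 times, while in the LGALS3BP window the share was 56.8% with 4 CG. The median over 35116 human promoter windows of this length was 58.0%. Both strands were searched for 8 motifs, none of whose matches shown here overlap. The GC box GGGCGG, the core bound by SP-family factors, matched 3 times before LGALS3 and 0 times before LGALS3BP, and 42.6% of all windows held it. The LGALS3BP window held a CCAAT box (CCAAT), found in 32% of windows, and an interferon response element core, found in 3.02%. The TATA box TATAAA (10.7% of windows), the AP-1 site TGANTCA (6.57%), the cAMP response element TGACGTCA (1.65%), the E-box CACGTG (6.34%) and an NF-kappaB site (1.73%) had no match in these 2 windows. A match describes letters and not a bound site.

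Array medians lay between 4.25 and 4.39 log2 units. The Mock arrays had the widest spread, with an interquartile range of 3.38 to 3.43 against 3.19 to 3.31 on the other arrays. CXCR4 probe set 217028_at averaged 7.09 in line I, 6.62 in line II and 8.58 in Mock. Relative to Mock it stood at -1.49 for line I (limma adjusted p = 8.47e-08) and -1.96 for line II (adjusted p = 4.44e-09). The other CXCR4 probe sets fell less from Mock. For 209201_x_at the values were -1.12 (line I) and -1.38 (line II), and for 211919_s_at -1.07 and -1.24. Relative to Parental cells the falls were smaller on each probe set, from -0.71 to -1.24 in line I and from -0.88 to -1.71 in line II. Mock exceeded Parental cells on 211919_s_at (0.36, limma adjusted p = 0.0465), while 209201_x_at (0.30, 0.11) and 217028_at (0.25, 0.0958) did not pass. Of 11 markers of ovarian cancer epithelium, 10 were above the array median on every array of line I, Mock and Parental, and 9 on every array of line II. MUC16, which encodes the ovarian marker CA125, was below the median on all arrays.

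LGALS3 RNA was higher in both knockdown lines than in both controls, and it formed a graded series over the 4 groups. Probe set 208949_s_at (LGALS3, Entrez gene 3958) read 10.74, 10.82 and 10.75 log2 units on the line I arrays and 9.80, 9.87 and 10.14 on the line II arrays. It read 8.66, 8.62 and 8.60 on the Mock arrays and 8.09, 8.16 and 8.16 on the Parental arrays. No 2 groups overlapped: every line I array lay above every line II array, these above Mock, and Mock above Parental. The group means on the log2 scale were 10.77 ± 0.04 in line I, 9.94 ± 0.18 in line II, 8.62 ± 0.03 in Mock and 8.14 ± 0.04 in Parental cells (SD, n = 3 each). On the linear scale these means correspond to 1744, 982, 394 and 282 intensity units.

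**Figure D1:**
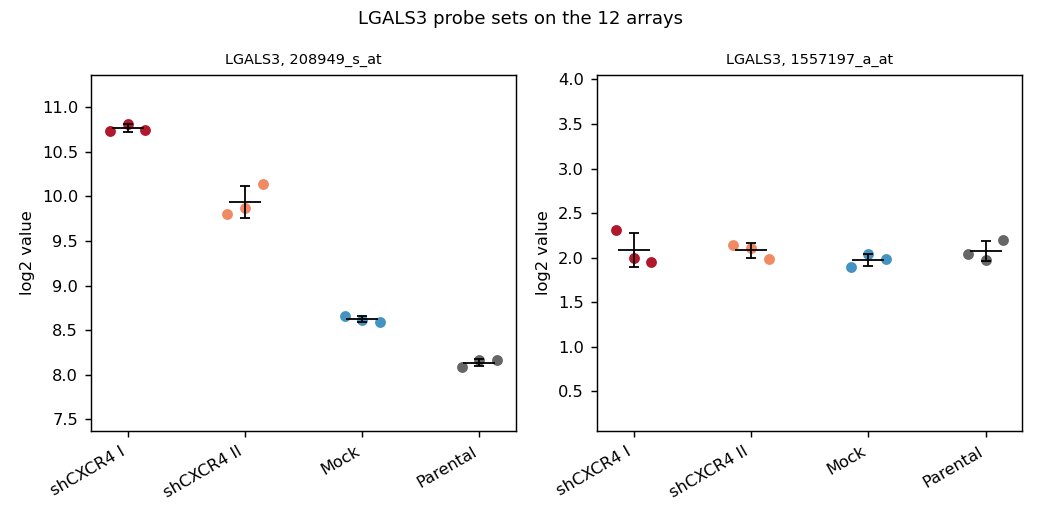
Log2 value (vertical axis) of the LGALS3 probe sets in the 4 groups, with a point for each array and the mean ± SD as bars. On 208949_s_at (left) the groups do not overlap and the means are 10.77, 9.94, 8.62 and 8.14, while on 1557197_a_at (right) all arrays lie between 1.90 and 2.31 and the groups overlap. The vertical axes span the same length and start at different values.

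Against Mock, 208949_s_at was 2.14 ± 0.08 (limma SE) higher on the log2 scale in line I, or 4.42-fold, and 1.32 ± 0.08 higher in line II, or 2.49-fold. Among 19775 genes ranked by the size of their fold change it stood at 21 in line I and at 87 in line II. Lack of overlap with Mock was itself common: 35.5% of probe sets did not overlap between line I and Mock, and 32.4% between line II and Mock. The comparisons with Parental cells use controls that the selection of the genes did not, although they share the line arrays with the comparisons above. There the log2 fold change was 2.63 in line I (6.19-fold, limma adjusted p = 1.66e-10, 95% interval 2.45 to 2.81) and 1.80 in line II (3.49-fold, adjusted p = 5.83e-09, interval 1.63 to 1.98). The rise was thus seen on 3 of 3 arrays of each line against every array of both controls. By size it ranked 9 among the genes in line I against Parental and 31 in line II against Parental.

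The level of LGALS3 also differed between the lines and between the controls. Both comparisons reuse arrays on which the genes were selected, so their p-values are not independent of that selection. Line I exceeded line II by 0.83 on the log2 scale (1.78-fold, limma adjusted p = 5.02e-05, 95% interval 0.65 to 1.00). Mock exceeded Parental cells by 0.49 (1.40-fold, adjusted p = 0.00163, interval 0.31 to 0.66). This last call ended when a minimum change of 1.2-fold was required (adjusted p = 0.336). The difference between Mock and Parental was thus smaller than either line's difference from Mock, and 3.02% of probe sets differed at least as much between those controls. For line I against line II that share was 0.246%. Over the 4 groups the means of 208949_s_at spanned 2.63 log2 units, more than in 99.9% of single-symbol probe sets, whose median span was 0.23. Its standard deviation within groups was 0.096, against a median of 0.113. On CXCR4 probe set 217028_at line I was 0.47 above line II (limma adjusted p = 0.00899). The other CXCR4 probe sets differed by 0.26 (adjusted p = 0.262) and 0.17 (adjusted p = 0.463). Any relation between the levels of LGALS3 and CXCR4 was not tested.

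The other LGALS3 probe set, 1557197_a_at, showed none of this. It read 2.31, 2.00 and 1.95 in line I, 2.15, 2.11 and 1.99 in line II, 1.90, 2.04 and 1.99 in Mock, and 2.05, 1.98 and 2.20 in Parental cells. All groups overlapped, and all 12 values were below the array median. Only 5.21% of single-symbol probe sets had a lower mean, so the signal sat at the bottom of the scale. Against Mock its log2 fold change came to 0.11 in each line, and it was -0.10 in Mock against Parental (limma adjusted p = 0.586) and 0.005 in line I against line II (adjusted p = 0.987). Against Parental cells it was 0.01 in line I (adjusted p = 0.962) and 0.006 in line II (adjusted p = 0.979). The rise of LGALS3 therefore rests on 208949_s_at alone. Which LGALS3 transcripts each probe set detects is not given in the sources used here, and the cause of their disagreement was not tested.

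Galectin-3 is also known as the macrophage antigen Mac-2, so macrophage markers are given beside it. In a bulk sample a change in the number of cells of a type and a change in RNA per cell cannot be told apart. Of 6 macrophage markers measured, 5 were below the array median on all arrays of every group, among them CD14, CD163 and CSF1R. The remaining marker, ITGAM, lay near the median, at 4.43 in line I, 4.46 in line II, 4.05 in Mock and 4.24 in Parental cells. Low as they were, ITGAM passed the limma test against Mock in line I (0.37, adjusted p = 0.0396) and line II (0.40, 0.0267), and CD163 (0.47, 0.0131) and MRC1 (0.31, 0.0231) in line II, while none of the 6 passed in the other 4 comparisons. Their summed linear signal was 74.6 to 80.5 in line I, 75.4 to 79.1 in line II, 64.8 to 70.3 in Mock and 72.5 to 77.8 in Parental cells. Of 5 other leukocyte markers, PTPRC (the pan-leukocyte antigen CD45), MS4A1 and NKG7 were below the median on all arrays, CD3D was above it on 6 and CD3E on 12. CD3E averaged 5.48 in line I, 5.32 in line II, 5.09 in Mock and 5.31 in Parental cells, and was the only one of these to pass, in line I against Mock (0.39, adjusted p = 0.0155). The part of these markers in the LGALS3 result was not tested.

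LGALS3BP, whose protein binds galectin-3, did not follow it. Probe set 200923_at (Entrez gene 3959) read 10.54, 10.53 and 10.59 in line I and 10.25, 10.22 and 10.36 in line II. It read 10.44, 10.48 and 10.48 in Mock and 10.36, 10.39 and 10.35 in Parental cells. Line I stood above every other array and line II reached down to the lowest values, overlapping Parental cells only. The means were 10.55 ± 0.03, 10.28 ± 0.07, 10.47 ± 0.02 and 10.37 ± 0.02 in line I, line II, Mock and Parental cells (SD, n = 3 each), so the whole span was 0.28 against 2.63 for LGALS3. The log2 fold change of LGALS3BP against Mock was 0.08 for line I but -0.19 for line II. The difference between the lines was 0.28 in favour of line I (1.21-fold, limma adjusted p = 0.0219, 95% interval 0.14 to 0.41). That call depended on single arrays: it was lost without any 1 line I array (adjusted p 0.0608 to 0.0892), without line II replicate 1 (0.0617) or 2 (0.0879), and in a fit of those 2 groups alone (0.102). In the other tested comparisons LGALS3BP did not pass, at 0.10 in Mock against Parental (adjusted p = 0.34), 0.19 in line I against Parental (0.0667) and -0.09 in line II against Parental (0.38). The second of these passed in 5 of 17 alternative analyses.

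LGALS1 was nearly level. Probe set 201105_at (Entrez gene 3956) read 11.61, 11.60 and 11.64 in line I and 11.50, 11.46 and 11.52 in line II. It read 11.54, 11.71 and 11.64 in Mock and 11.66, 11.64 and 11.66 in Parental cells. Line II lay below all arrays of the other groups, and the Mock arrays spanned both line I and Parental cells. Against Mock the log2 fold change was -0.01 for line I and -0.14 for line II. It was -0.02 in Mock against Parental (limma adjusted p = 0.87), 0.12 in line I against line II (0.352), -0.04 in line I against Parental (0.78) and -0.16 in line II against Parental (0.117, 95% interval -0.30 to -0.03). The last passed in 3 of 17 alternative analyses.

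**Figure D2:**
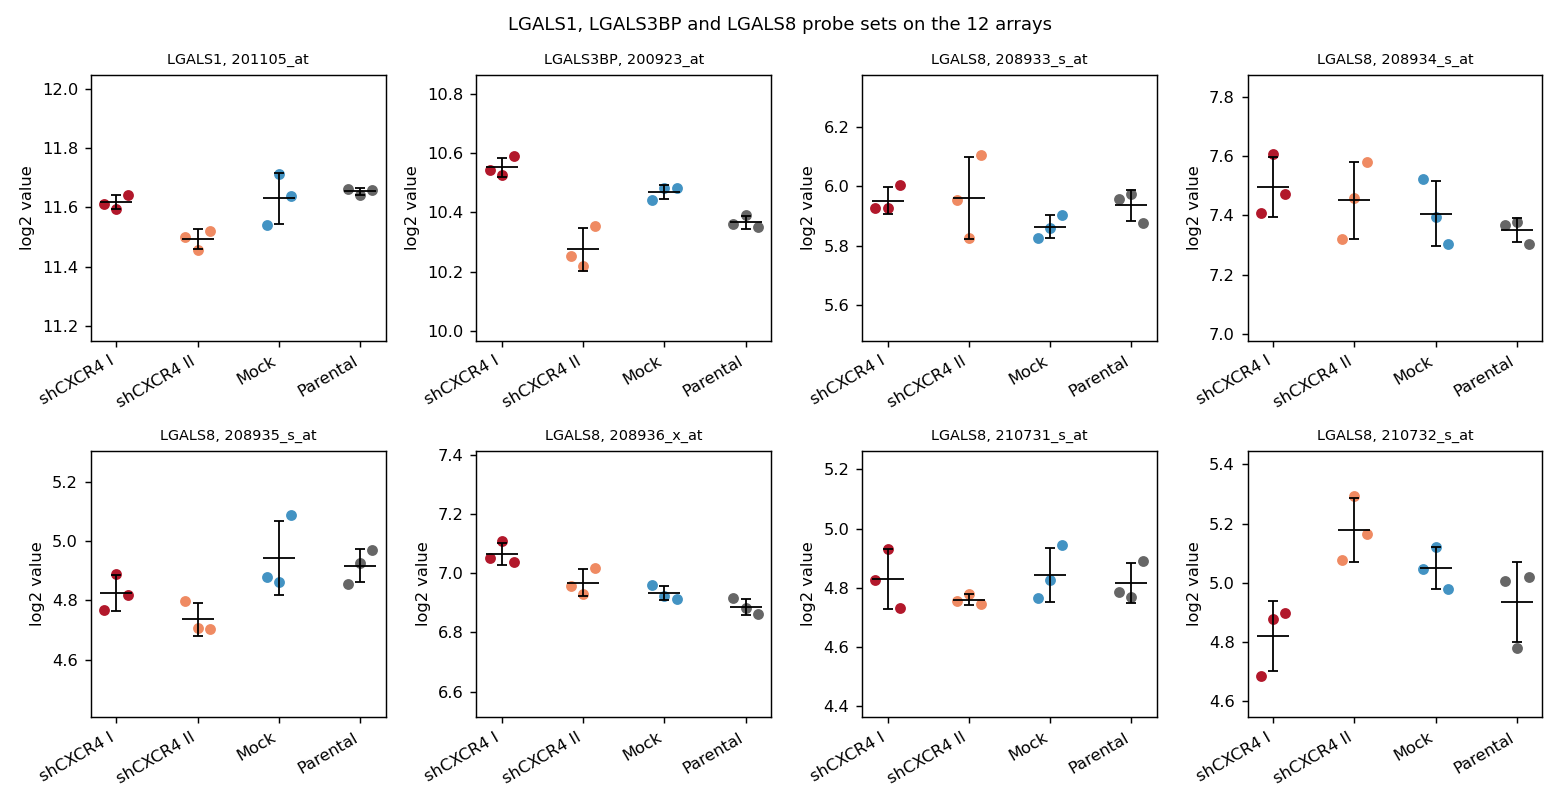
Log2 value (vertical axis, each panel spanning the same length around its own mean) of the LGALS1, LGALS3BP and LGALS8 probe sets in the 4 groups, with a point for each array and the mean ± SD as bars. All group means of a probe set lie within 0.36 log2 units, and line I is highest for LGALS3BP and lowest for LGALS8 210732_s_at.

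LGALS8, whose protein marks damaged endosomes and lysosomes by binding their exposed glycans, was measured by 6 probe sets that did not move together. The largest difference was on 210732_s_at, which read 4.69, 4.88 and 4.90 in line I, 5.08, 5.29 and 5.16 in line II, 5.05, 5.12 and 4.98 in Mock, and 5.01, 4.78 and 5.02 in Parental cells. Line I lay below line II and Mock on all its arrays and overlapped Parental cells. The difference of line I from line II was -0.36 on the log2 scale (limma adjusted p = 0.0375, 95% interval -0.55 to -0.17). It lost its call without any 1 line I array (adjusted p 0.0621 to 0.16), without line II replicate 2 (0.147) or 3 (0.0612), with arrays centred on their medians (0.0538) and in a fit of those 2 groups alone (0.0831). Probe set 208936_x_at ran the other way, with means of 7.07 ± 0.04 in line I, 6.97 ± 0.05 in line II, 6.93 ± 0.02 in Mock and 6.89 ± 0.03 in Parental cells. Its line I arrays (7.05, 7.11 and 7.04) were above all others, and its largest tested difference was 0.18 in line I against Parental (adjusted p = 0.067), which passed in 4 of 17 alternative analyses. Probe set 208935_s_at read 4.77, 4.89 and 4.82 in line I, 4.80, 4.71 and 4.70 in line II, 4.88, 4.86 and 5.09 in Mock, and 4.86, 4.93 and 4.97 in Parental cells, and line II lay below both controls. Its log2 fold change in line II was -0.21 against Mock and -0.18 against Parental (adjusted p = 0.136). On 208933_s_at, 208934_s_at and 210731_s_at the means of the 4 groups spanned 0.10, 0.15 and 0.08 log2 units, and no tested comparison passed. Over the 6 probe sets, fold changes lay between -0.23 and 0.13 in line I against Mock and between -0.21 and 0.13 in line II against Mock. Names ending in _s_at or _x_at mark probes that may also match other transcripts.

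Over the 10 probe sets the calls at an adjusted p under 0.05 were few. Between the lines 3 passed, where 4.11% of all probe sets did, of which 2 were higher in line I (background 2.74%) and 1 lower (1.36%). In Mock against Parental 1 passed (background 10.5%), as in line I against Parental (12.4%) and in line II against Parental (12.5%), each time LGALS3 208949_s_at. Groups did not overlap for 5 members in line I against Mock (background 35.5%), 4 in line II against Mock (32.4%), 2 in Mock against Parental (29.9%), 5 in line I against line II (21.1%), 4 in line I against Parental (34.3%) and 5 in line II against Parental (30.5%). Against Mock the members had a median log2 fold change of 0.09 (line I) and 0.04 (line II), beside 0.02 and 0.02 over all probe sets. The comparisons share arrays, so their values are set side by side and not combined.

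**Figure D3:**
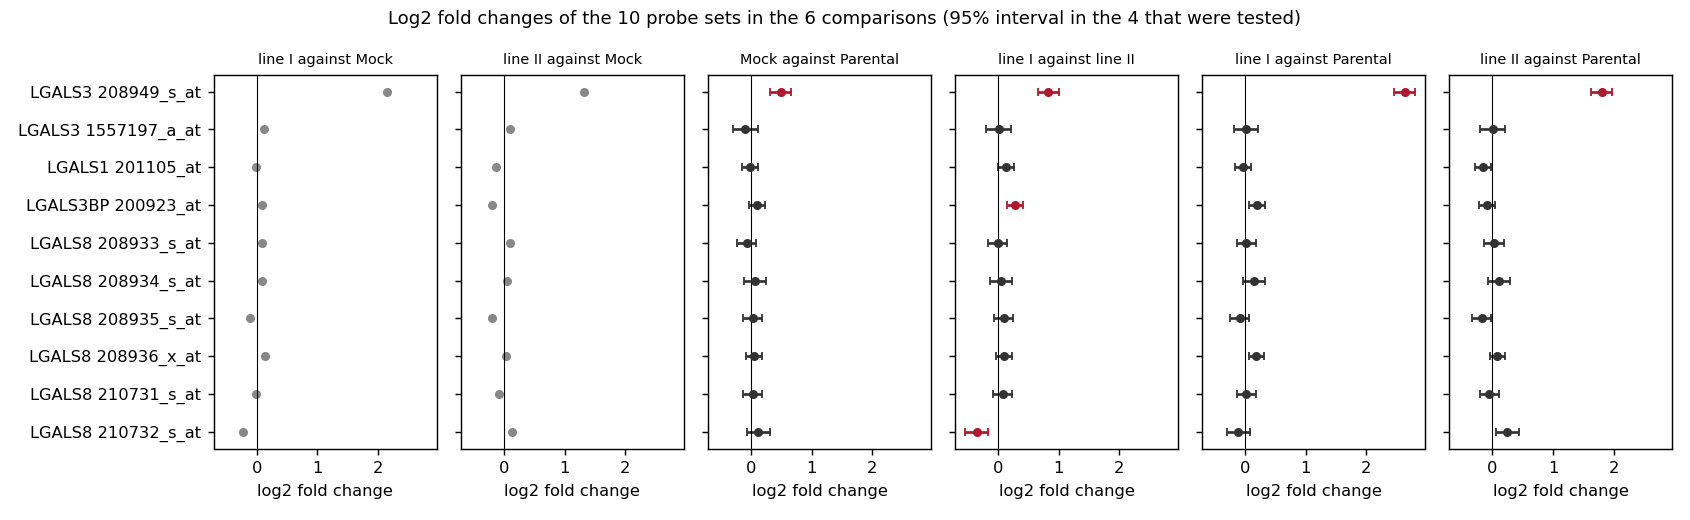
Log2 fold change (horizontal axis, first-named group over the second) of each member probe set in the 6 comparisons, with 95% limma intervals in the 4 tested comparisons and grey points without interval for the comparisons with Mock. Red points passed an adjusted p under 0.05: LGALS3 208949_s_at in all 4, at 0.49 to 2.63, and LGALS3BP and LGALS8 210732_s_at only in line I against line II, at 0.28 and -0.36.

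Genes with the profile most like LGALS3 208949_s_at were ranked by the root mean square difference of log2 values over the 12 arrays, after each gene's own mean was subtracted. The nearest was NPNT (nephronectin, a matrix ligand of integrins) at 0.26, where the median over all other genes was 1.04. NPNT averaged 8.47 in line I, 8.32 in line II, 6.57 in Mock and 6.24 in Parental cells. ALDH1A3, a retinaldehyde dehydrogenase, followed at 0.35, with 6.53, 6.47, 5.08 and 4.49 in the same order. The long non-coding RNA LINC00518 (0.46), the interleukin-6 receptor IL6R (0.47) and the hyaluronan synthase HAS3 (0.51) came next. Line I had a higher mean than line II for NPNT and ALDH1A3, as for LGALS3. The same held for IL6R (8.19 against 7.67 in line II) and HAS3 (8.25 against 7.495 in line II). LINC00518 was higher in line II (4.945 against 4.825 in line I). The genes nearest to the other members were ranked likewise. For LGALS3BP they were CAPSL-DT, FIG4, CD46, SLC37A3 and CD63 (0.033 to 0.047, median over genes 0.173). Each of these had its highest mean in line I and its lowest in line II, as had LGALS3BP. The LGALS3BP means spanned 0.28, where the median span over single-symbol probe sets was 0.23. For LGALS1 they were TM9SF2, HACD3, DAZAP2, TMEM248 and FADD (0.041 to 0.045, median 0.155). For the brightest LGALS8 probe set, 208934_s_at, they were TNFRSF12A, ATG3, NSA2, EFCAB12 and CWC15 (0.052 to 0.060, median 0.167).

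**Figure D4:**
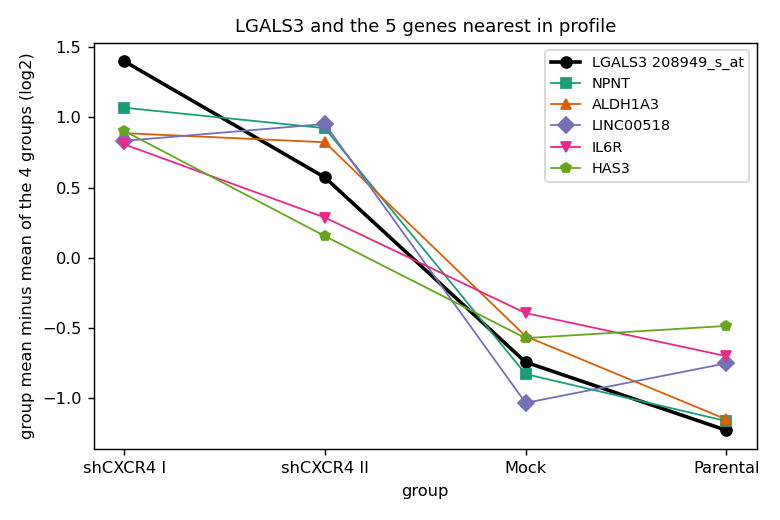
Group mean minus the mean of the 4 groups (vertical axis, log2 units) for LGALS3 208949_s_at in black and the 5 genes nearest to it in colour. LGALS3, ALDH1A3, NPNT and IL6R are lowest in Parental cells, while HAS3 and LINC00518 are lowest in Mock, and LINC00518 is highest in line II.

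The wider galectin pathway was read from 6 lists of 112 genes, of which 103 were measured, with 1 probe set per gene, the brightest. Of these, 16 rose and 10 fell in line I against Mock, beside 9.97% and 13.6% of all genes, and 16 rose and 24 fell in line II against Mock (11.0% and 15.1%). In Mock against Parental 8 rose and 10 fell (9.78% and 5.23%). In line I against line II 13 were higher and 0 lower at the same limma threshold (4.66% and 2.48%). At an unadjusted p under 0.05 these counts were 27 and 2. Against Parental cells 12 rose and 8 fell in line I (8.25% and 8.56%), and 5 rose and 15 fell in line II (7.47% and 9.48%). Both lines against both controls gave the same call upwards for ITGA5, LAMP2, B3GNT4 and C1GALT1C1 (1.48% of all genes) and downwards for MGAT4C and NBR1 (3.10%). The lists were put together with earlier results of these data known. Their counts, and the adjusted p-values of list genes named for their calls, are a description.

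Among 8 other galectins measured, 2 rose in each line against Mock, beside 9.97% (line I) and 11.0% (line II) of all genes. None of the rest passed. LGALS4 (galectin-4, an epithelial galectin of the gut) was up by 0.31 in line I (limma adjusted p = 0.0114, but 0.0565 without line I replicate 1) and by 0.32 in line II (0.0096). It was also lower in Mock than in Parental cells (-0.34, 0.00955), and the lines stood level with Parental cells, at -0.03 (0.847) and -0.02 (0.891). All its group means lay below the array medians. LGALSL, a galectin-like protein, was 0.33 higher in line I (adjusted p = 0.00147) and 0.20 in line II (0.0272) than in Mock, and both calls were lost when the gene was read as the mean of its probe sets. The line II call was also lost with arrays centred, with array weights, in a fit of those groups alone, and without line II replicate 1 or Mock replicate 2 or 3 (highest adjusted p = 0.0787 without 1 array). Against Parental cells LGALSL was 0.28 higher in line I (0.00519) and 0.15 in line II (0.111).

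Of 30 glycoproteins that galectins bind, 6 rose and 1 fell in line I against Mock, beside 9.97% and 13.6% of all genes. In line II against Mock 5 rose and 8 fell (11.0% and 15.1%). LAMP2, the lysosomal membrane glycoprotein, was graded in the lines as LGALS3 was, with 10.26 in line I, 9.71 in line II, 9.004 in Mock and 9.21 in Parental cells. Its log2 fold change was 1.26 in line I (limma adjusted p = 1.54e-08) and 0.71 in line II (4.05e-06) against Mock, and 0.55 between the lines (0.000131). Against Parental cells line I stood at 1.05 (9.27e-08) and line II at 0.50 (9.81e-05). Unlike LGALS3, it was lower in Mock than in Parental cells (-0.20, adjusted p = 0.045, lost without Mock replicate 1 or 3 or any 1 Parental array). ITGA5, the fibronectin receptor subunit alpha-5, rose against Mock by 1.07 (line I) and 1.05 (line II), and against Parental cells by 0.88 and 0.86. The mucin MUC1, a galectin-3 ligand, was higher in line I alone, by 0.99 against Mock (4.79e-06), 0.98 against line II (2.11e-05) and 1.14 against Parental cells (1.23e-06), and line II differed from Mock by 0.01 (0.954). The laminin-binding integrin subunits ITGA3 and ITGA6 were lower in line II than in Mock, with log2 fold changes of -0.62 and -0.51, and line I exceeded line II by 0.76 and 0.41. Against Parental cells ITGA6 was lower in line II as well (-0.56, 5.25e-05). ITGA3 was not (-0.10, 0.392), while it was above Parental cells in line I (0.66, 3.62e-05) and in Mock (0.52, 0.000389). EGFR rose against Mock by 0.37 (line I) and 0.42 (line II) and was lower in Mock than in Parental cells (-0.60), without calls when _s_at and _x_at probe sets were left out. The laminin subunit LAMC1 fell by 0.39 in line II against Mock (0.00201), and its lower level in line I (-0.22, 0.0419) did not hold its call without any 1 line I array, Mock replicate 2 or 3, or _s_at and _x_at probe sets. LAMC1 averaged 11.09 in line I, 10.92 in line II, 11.31 in Mock and 11.06 in Parental cells. Mock was thus above Parental cells (0.25, 0.0374, lost without Mock replicate 2 or 3 or Parental replicate 1 or 2). MUC16, below the median on all arrays, had a log2 fold change of -0.45 in line I against Parental (0.0489), a size that is not exact. That call was lost without _s_at and _x_at probe sets, any 1 line I array or Parental replicate 2 or 3 (highest adjusted p = 0.208).

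**Figure D5:**
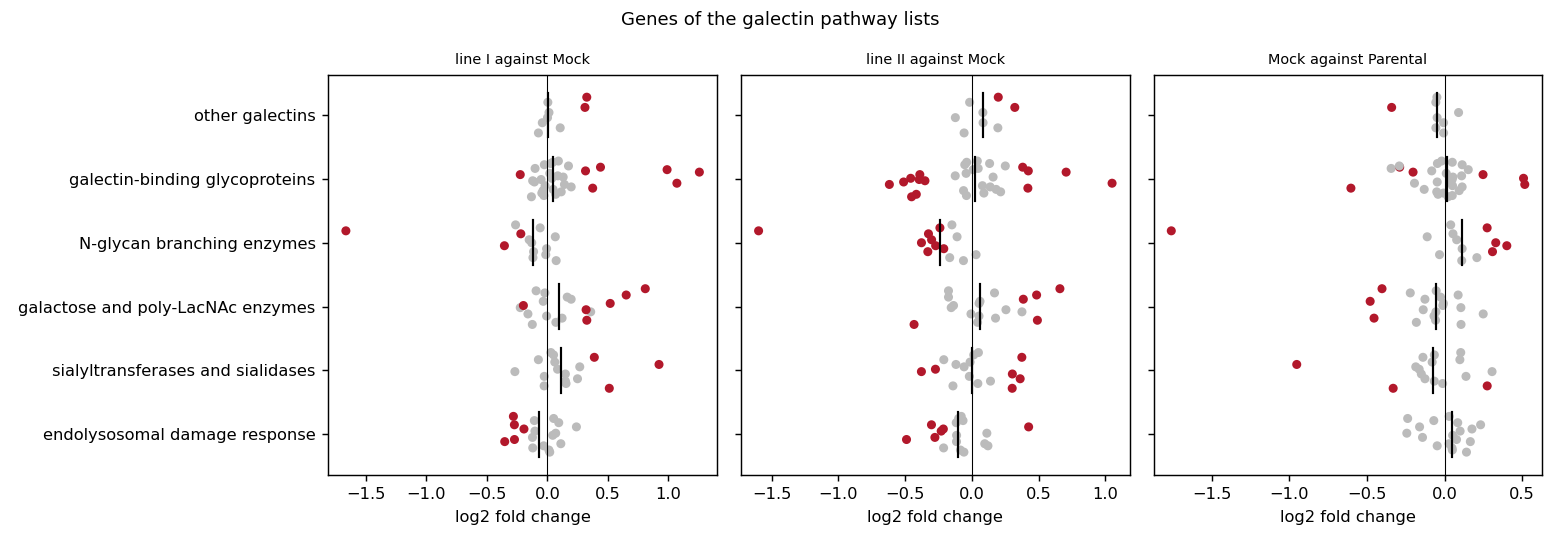
Log2 fold change (horizontal axis, first-named group over the second) of each measured gene of the 6 pathway lists, 1 point per gene, in line I against Mock, line II against Mock and Mock against Parental. Red points passed an adjusted p under 0.05, grey did not, and the black bar is the list median. LAMP2, ITGA5 and MUC1 stand at the right of the glycoprotein row in line I (1.26, 1.07 and 0.99). The lone point at the left of the N-glycan branching row is MGAT4C, whose level was below the array medians in both lines and Mock, so its place there has no exact size.

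Among the enzymes that make the glycans that galectins bind, those of N-glycan branching were called only downwards in the lines against Mock. Of 13 N-glycan branching enzymes, 0 rose and 3 fell in line I against Mock, beside 9.97% and 13.6% of all genes. In line II against Mock 0 rose and 8 fell (11.0% and 15.1%). At an unadjusted p under 0.05, 0 rose in either. In Mock against Parental 4 rose and 1 fell (9.78% and 5.23%). Against Parental cells 1 rose and 1 fell in line I (8.25% and 8.56%), and 0 rose and 2 fell in line II (7.47% and 9.48%). Over all probe sets with a mean log2 of 6 or more, median log2 fold changes were -0.09 in line I and -0.10 in line II against Mock. In Mock against Parental that median was 0.06. The part of this shift in the list counts was not tested. MGAT4C, an N-acetylglucosaminyltransferase family member, averaged 2.11 in line I, 2.18 in line II, 3.78 in Mock and 5.54 in Parental cells. It passed as lower in line I (limma adjusted p = 5.28e-07) and in line II (7.61e-07) against Mock, and in Mock against Parental (4.28e-07). Only its Parental mean lay above the array medians, and the line means were near that of LGALS3 1557197_a_at at the bottom of the scale, so no exact size of these differences is given. MGAT1, which starts the complex branches, fell in line I (-0.35 against Mock, 0.00628) and also in line II (-0.27 against Mock, 0.025, lost without line II replicate 1 or 2 or Mock replicate 2 or 3), but was 0.40 higher in Mock than in Parental cells (0.00419). MGAT2, which adds the next branch, was at -0.38 in line II against Mock (0.000621), at -0.13 in line I against Mock (0.142) and at 0.33 in Mock against Parental (0.00227).

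Of 18 enzymes of galactose and poly-N-acetyllactosamine addition, 5 rose and 1 fell in line I against Mock, beside 9.97% and 13.6% of all genes. In line II against Mock 4 rose and 1 fell (11.0% and 15.1%). C1GALT1C1 (COSMC), the chaperone of core 1 O-glycan synthesis, rose against Mock by 0.65 (line I) and 0.48 (line II) and against Parental cells by 0.74 and 0.57. B3GNT4, a poly-N-acetyllactosamine synthase, rose by 0.33 and 0.49 against Mock and by 0.27 and 0.43 against Parental cells, where the line I call (limma adjusted p = 0.0316) was lost without any 1 line I or Parental array. The core 2 enzyme GCNT3 rose against Mock by 0.81 (line I) and 0.66 (line II) and was lower in Mock than in Parental cells (-0.40). B4GALT4 was higher in line I alone, by 0.52 against Mock (0.000125) and 0.47 against line II (0.00124). B4GALT5 was lower in all plasmid-carrying groups than in Parental cells, with log2 fold changes of -0.51 in line I (0.00244), -0.42 in line II (0.0102) and -0.48 in Mock (0.0049). B4GALT3 was lower in line I than in Mock (-0.20, 0.0229) and than in Parental cells (-0.21, 0.0214), and neither call held without any 1 line I array or with the mean of its probe sets. B3GNT2 fell by 0.43 in line II against Mock (0.00464) and was at 0.20 (0.205) when _s_at and _x_at probe sets were left out, and the mean of its probe sets also gave no call.

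Of 16 sialyltransferases and sialidases, whose products can mask or expose galactose, 3 rose and 0 fell in line I against Mock. There 1 fell at an unadjusted p under 0.05. In line II against Mock 4 rose and 2 fell. The shares of all genes that rose and fell were 9.97% and 13.6% in line I and 11.0% and 15.1% in line II. ST6GALNAC1 was 0.92 higher in line I than in Mock (limma adjusted p = 3.87e-05) and 1.04 higher than in line II (5.66e-05), while line II differed from Mock by -0.12 (0.436). Line I stood beside Parental cells, with ST6GALNAC1 means of 5.50 and 5.53. Against Parental cells this gene was lower in Mock (-0.95, 4.39e-05) and in line II (-1.07, 1.21e-05). ST6GALNAC4 rose against Mock by 0.39 (line I) and 0.37 (line II), without calls when _s_at and _x_at probe sets were left out. ST3GAL6, with all group means below the array medians, was lower in line II than in Mock (-0.38, 0.0223, lost without line II replicate 1 or 2 or Mock replicate 2 or 3), and NEU3 was 0.27 higher in Mock than in Parental cells (0.0175, lost without Mock replicate 3 or Parental replicate 3, or when its probe sets were averaged).

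The response to damaged endosomes and lysosomes, where galectin-3 and galectin-8 gather, was read from 18 genes. Of these, 0 rose and 5 fell in line I against Mock, beside 9.97% and 13.6% of all genes. In line II against Mock 1 rose and 5 fell (11.0% and 15.1%). The list medians against Mock were -0.07 (line I) and -0.11 (line II), beside -0.09 and -0.10 over probe sets with a mean log2 of 6 or more. The part of that shift in these counts was not tested. None of the list genes passed in Mock against Parental or line I against line II. At an unadjusted p under 0.05, 1 rose in line I against Mock, 2 were higher and 1 lower in Mock against Parental, and 3 were higher and 1 lower in line I against line II. The autophagy receptor NBR1 was lower in line I (-0.27 against Mock, limma adjusted p = 0.00684) and also in line II (-0.49 against Mock, 0.000109), but neither call held with the mean of its probe sets or without _s_at and _x_at probe sets, and the same was true of line II against Parental (-0.41, 0.000454). Its call in line I against Parental (-0.19, 0.0486) was lost without any 1 line I or Parental array and without _s_at and _x_at probe sets, and in line II against Mock NBR1 was at 0.07 (0.689) on a probe set not named _s_at or _x_at. The receptor OPTN was lower in line II than in Parental cells (-0.42, 0.00185). It was also lower in line II than in Mock (-0.28, 0.0176, lost without Mock replicate 3 or without _s_at and _x_at probe sets). In line I OPTN was below Parental cells (-0.27, 0.0289, lost without line I replicate 1 or 3 or any 1 Parental array). Against Mock it was at -0.12 in line I (0.269). MTOR fell by 0.35 in line I against Mock (0.0393), a call lost with the mean of its probe sets and without line I replicate 2 or 3 or Mock replicate 2 or 3. TFEB, the regulator of lysosome biogenesis, was 0.42 higher in line II than in Mock (0.00948), a call lost with the mean of its probe sets, and stood at 0.24 in line I (0.112).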

How the data were processed

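The authors deposited log2 values, 1 for each probe set on each array. Per the submitters' processing notes these were computed by RMA under R 2.6.0. How probes were grouped into sets, how background was treated and whether rows were filtered is not given in the sources used here. No further scaling was applied, and the number of arrays limits the precision. Platform annotation assigned 1 gene symbol to 41097 of 54675 probe sets, several to 1801 and none to 11777. No symbol needed updating by Entrez number.

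Each of 41091 single-symbol probe sets without array controls was fitted over the 12 arrays with a mean for each group in limma 3.58.1 (lmFit, then eBayes; R 4.3.3), which left 8 residual degrees of freedom and added 5.67. P-values were adjusted by Benjamini-Hochberg over these probe sets, and results under 0.05 were called. The pathway lists were read from a like fit of 19775 genes, each by its brightest single-symbol probe set. Plain numbers in parentheses after a log2 fold change are adjusted p-values of these fits. SE denotes the standard error given by limma.

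The members and lists were chosen with earlier results of these data known. Named were all member probe sets, CXCR4, the 5 genes nearest in profile to each member, list genes called alike in both lines against both controls, and the largest rise and fall called per list and comparison, 28 list genes in all. Fits were tested on simulated data. Alternatives concerned normalization (quantile, centring) and the variance model (trend, array weights, a replicate block, only the groups compared). Others concerned the threshold, the probe sets tested (all, or without dim ones) and leaving out each array in turn. How a gene is represented was varied for list genes only. Gene positions and promoter windows are from RefSeq (GRCh38.p14). Figures were drawn with Python 3.11.15 and matplotlib 3.10.9.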

Additional observations from a re-analysis of the deposited data

Results flagged for a closer look

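The knockdown lines differed from each other, by the limma test of that difference itself, on 3 of the 10 member probe sets. The test uses line arrays on which the genes were selected, so it is not independent of that selection. LGALS3 208949_s_at was 0.83 higher on the log2 scale in line I than in line II (adjusted p = 5.02e-05). There 3 of 3 line I arrays lay above every line II array. The call held in all 17 alternative analyses run on single probe sets. LGALS3BP 200923_at was 0.28 higher in line I (adjusted p = 0.0219), likewise without overlap, and lost its call in 8 of 17 alternatives. LGALS8 210732_s_at was lower in line I (-0.36, adjusted p = 0.0375), also without overlap, and lost its call in 10 of 16 alternatives. Each line is a single clone, so the difference between the shRNA sequences and that between the clones cannot be told apart.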

How the results depend on the processing

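No member value reversed, and 42 sign changes concerned values that passed the test in neither analysis. Among the alternatives run on member probe sets, LGALS3 208949_s_at kept its calls in all 4 tested comparisons with 1 exception. In Mock against Parental it was 0.49 with adjusted p = 0.336 at a minimum change of 1.2-fold. Averaging a gene's probe sets, or leaving out _s_at and _x_at probe sets, was applied to list genes and not to members. Without _s_at probe sets LGALS3 would rest on its other probe set, which showed no rise against Parental cells. That probe set stood at 0.01 in line I and 0.006 in line II against Parental. The fold change of 208949_s_at in line I against Mock was 2.23 after quantile normalization and 2.08 with arrays centred. Without 1 array it was 2.12 to 2.16 in line I against Mock, 1.21 to 1.38 in line II against Mock, 0.46 to 0.50 in Mock against Parental, 0.76 to 0.93 in line I against line II, 2.605 to 2.645 in line I against Parental and 1.70 to 1.87 in line II against Parental. Members called in line I against Parental (1) numbered 3 after quantile normalization, with array weights and with either filter on dim probe sets (a mean log2 of 6 or more, or the brighter 50%), and 2 with a trended variance. In line II against Parental (1) they numbered 2 with a trended variance, with weights and with a mean of 6 or more, and 3 in the brighter 50%. In line I against line II (3) they numbered 1 in a fit of only those groups, at an adjusted p under 0.01 and at the minimum fold, and 1 to 2 without 1 array. In Mock against Parental (1) they numbered 0 at the minimum fold, and stayed at 1 without any 1 array, as in both comparisons of a line with Parental.

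Pathway genes called numbered 26 in line I and 40 in line II against Mock, 18 in Mock against Parental, 13 between the lines, and 20 in line I and 20 in line II against Parental. At the minimum fold they were 9, 7, 3, 4, 7 and 6 in that order. At an adjusted p under 0.01 they were 17 in line I against Mock and 12 in line I against Parental. In line I against line II they were 20 with a trended variance, with a mean of 6 or more and in the brighter 50%. Without _x_at and _s_at probe sets they were 13 in line I against Mock, 26 in line II against Mock, 7 between the lines and 10 in line I against Parental. Without 1 array they were 18 to 28, 33 to 44, 15 to 19, 10 to 19, 12 to 15 and 17 to 30, and the lowest count in line I against Parental came without line I replicate 3. Leaving out _x_at and _s_at probe sets reversed B3GNT2 in line II against Mock (0.20) and against Parental (0.19), and NBR1 in line II against Mock (0.071). Where not stated, the cause was not tested.

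With arrays centred on their medians, the share of higher probe sets among those called was 21.4% in place of 39.5% in line I against Mock, 19.1% in place of 39.9% in line II against Mock, 74.2% in place of 62.8% in Mock against Parental and 26.3% in place of 38.9% in line II against Parental. The replicate numbers did not pair the samples: of 18 correlations between deviations of same-numbered arrays, 1 exceeded 0.1 (range -0.082 to 0.163). With a replicate block LGALS3 208949_s_at kept every call (0.83 in line I against line II, adjusted p = 0.000203), members called between the lines numbered 2 in place of 3, and pathway genes called in line I against Mock numbered 24.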
